A study of Mus musculus with 12 samples.

Results

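The interferon ligand *Ifnb1*, the receptor chains *Ifnar1*, *Ifnar2*, *Ifngr1* and *Ifngr2*, and the Janus kinases *Jak1*, *Jak2*, *Jak3* and *Tyk2* were followed by RNA-seq in thioglycollate-elicited peritoneal exudate cells (PECs), which are mostly macrophages drawn into the peritoneal cavity. These 9 genes were taken by symbol from the table of normalized values, without reference to their levels. The table held a row for 8 of them among its 12850 genes, and *Ifnb1*, which encodes interferon beta, is not analysed here. The study compared WT C57BL/6 mice with *Zc3h12a* S513A/S513A mice (S513A), in which a serine of the RNase Regnase-1 is replaced by alanine. The question of the comparison was whether this substitution changes the transcripts of macrophages at rest and after LPS, the bacterial product that activates TLR4.

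The 6 groups were WT and S513A PECs at 0, 4 and 8 hr of LPS (100 ng/ml), with 2 libraries in each group and 12 in all. The mice of every group, including the untreated ones, had received 2 ml of 4% thioglycollate medium 3.5 days before the cells were collected and put in culture. The S513A allele was made by CRISPR/Cas9 editing of fertilized C57BL/6J eggs and is present in all cells of the mouse. The age of the mice and whether a library came from 1 mouse or a pool are not given in the sources used here. The labels do not say that the libraries came from separate animals, so the p values measure the spread between these libraries, which may be technical. Each library had between 9525979 and 12439960 reads on the genes of the table. All 6 markers of macrophages had a row, and their summed level was 16070 to 26290 CPM (reads scaled to the size of the library). The summed level was 1.29 to 3.59 CPM for the 3 T cell markers with a row and 0.0348 to 3.20 CPM for *Klrk1*, the NK cell marker with a row. It was 10.1 to 25.9 CPM for 5 B cell markers and 20.3 to 108 CPM for the neutrophil markers *Camp* and *S100a8*. PECs are a mixture, and in bulk libraries fewer cells of a type and less RNA per cell cannot be told apart.

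Type I interferons, of which interferon beta is the first made by macrophages after LPS, bind a receptor of the chains IFNAR1 and IFNAR2, and interferon gamma binds one of IFNGR1 and IFNGR2. The chains have no enzyme activity of their own and carry Janus kinases on their cytoplasmic tails, TYK2 on IFNAR1, JAK1 on IFNAR2 and IFNGR1, and JAK2 on IFNGR2. Binding brings the kinases together, they phosphorylate STAT proteins, and these enter the nucleus and start the transcription of the interferon-stimulated genes. JAK3 belongs to the receptors that use the common gamma chain (*Il2rg*), such as those for IL-2 and IL-15, and is best known from lymphocytes.

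Of the receptor chains, *Ifnar2* (16, 91372783 to 91405589), *Ifnar1* (16, 91485032 to 91510523) and *Ifngr2* (16, 91547059 to 91564007) lie on the plus strand of chromosome 16, and *Il10rb*, a chain of the IL-10 receptor, lies between *Ifnar2* and *Ifnar1*, 567 bases after the end of *Ifnar2*. The first and the last of these chains span 191 kb. *Ifngr1* lies on chromosome 10 (19591949 to 19610229, plus strand). The kinases are on separate chromosomes, *Jak1* on chromosome 4 (101151974 to 101265282, minus strand), *Jak2* on chromosome 19 (29251803 to 29313095, plus strand), *Jak3* on chromosome 8 (71676383 to 71690577, plus strand) and *Tyk2* on chromosome 9 (21104068 to 21131393, minus strand). All positions are those of GRCm38.p6.

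Promoters were read from RefSeq (GRCm38.p6), from 250 bases before to 50 after the transcript start used for each gene. All 8 genes with a row were matched. In *Ifnar1*, *Jak1* and *Tyk2* that start lay inside the span of the gene given above. The letters TTCNNNGAA, the binding pattern of STAT dimers known as GAS, which reads the same on both strands, occurred in the promoters of *Ifnar2* and *Ifnar1* and in 8.30% of all 32851 promoters. These promoters are shown with the match in capitals, and both genes rose with LPS and lie in one cluster. *Ifngr2*, of the same cluster, and *Jak2* and *Tyk2* were also called higher with LPS, and their promoters held no match.

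*Ifnar2*, chr16:91372533-91372832, plus strand: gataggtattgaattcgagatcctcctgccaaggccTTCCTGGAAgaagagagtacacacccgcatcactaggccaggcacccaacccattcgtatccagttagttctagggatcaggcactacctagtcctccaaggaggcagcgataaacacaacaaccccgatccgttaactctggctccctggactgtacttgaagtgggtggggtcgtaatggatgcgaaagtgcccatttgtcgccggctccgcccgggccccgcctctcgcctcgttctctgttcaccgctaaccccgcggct

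*Ifnar1*, chr16:91484965-91485264, plus strand: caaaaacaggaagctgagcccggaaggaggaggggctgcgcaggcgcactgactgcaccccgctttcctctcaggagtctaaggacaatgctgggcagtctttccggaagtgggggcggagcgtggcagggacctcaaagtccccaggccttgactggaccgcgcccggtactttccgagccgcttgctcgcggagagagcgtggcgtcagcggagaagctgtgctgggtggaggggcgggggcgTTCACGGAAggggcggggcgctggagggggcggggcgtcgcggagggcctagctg

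The match began 214 bases before the start used in *Ifnar2* and 5 bases before that used in *Ifnar1*. In *Ifnar1* the match thus lay inside the span of the gene given above. The core of the interferon-stimulated response element (ISRE), GAAA repeated after any 2 bases, was searched on both strands and was found in 3.44% of all promoters and in 0 of these 8. The letters TATAAA, also searched on both strands, were in 13.6% of all promoters and in 0 of these 8. The promoters of *Jak2* and *Ifngr1*, the kinase and the receptor chain that rose and fell the most with LPS, are shown with their CG dinucleotides in capitals.

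*Jak2*, chr19:29251553-29251852, plus strand: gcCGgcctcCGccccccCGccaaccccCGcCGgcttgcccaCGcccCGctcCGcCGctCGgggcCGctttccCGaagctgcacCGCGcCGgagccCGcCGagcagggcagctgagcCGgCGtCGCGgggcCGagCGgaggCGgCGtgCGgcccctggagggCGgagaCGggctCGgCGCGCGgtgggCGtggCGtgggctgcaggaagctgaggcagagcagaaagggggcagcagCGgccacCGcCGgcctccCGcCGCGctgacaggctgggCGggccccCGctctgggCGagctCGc

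*Ifngr1*, chr10:19591699-19591998, plus strand: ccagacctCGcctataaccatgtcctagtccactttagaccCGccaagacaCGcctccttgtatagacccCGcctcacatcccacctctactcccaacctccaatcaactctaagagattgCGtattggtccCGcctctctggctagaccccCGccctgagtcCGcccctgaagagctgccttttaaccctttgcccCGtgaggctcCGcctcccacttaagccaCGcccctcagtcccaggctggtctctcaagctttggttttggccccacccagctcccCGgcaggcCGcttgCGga

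The *Jak2* promoter held 44 CG dinucleotides, as many as or more than 98.1% of all promoters, whose median was 7. The *Ifngr1* promoter held 14. The other promoters lay between 9 in *Jak3* and 31 in *Ifngr2*, with 29 in *Jak1*, 26 in *Ifnar1*, 23 in *Tyk2* and 18 in *Ifnar2*. A match of letters is a description of the window and does not say that a factor binds there.

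In response to LPS, transcripts of both type I receptor chains, of *Jak2* and of *Tyk2* rose, transcripts of the ligand-binding chain of the interferon gamma receptor fell, and *Jak1* and *Jak3* did not pass the test. Changes were tested with limma and Benjamini-Hochberg adjustment across the 11885 genes that reached 1 CPM in at least 2 libraries, and a gene was called at an adjusted p under 0.05. At 4 hr of LPS, pooled over the genotypes, 5 of the 8 genes were called higher and 1 was called lower, where 29.1% of all tested genes were higher, 26.7% were lower and 55.8% were called in all. At 8 hr the same 5 genes were higher and the same 1 was lower, where 24.5% of all genes were higher, 21.6% were lower and 46.1% were called. The median log2 fold change of the 8 genes was 0.40 at 4 hr and 0.39 at 8 hr, beside 0.02 and -0.0007 over all genes. The 4 libraries of 4 hr did not overlap with those of 0 hr in 6 of the 8 genes, and those of 8 hr did not in 7, while 49.1% and 43.7% of all genes did not overlap in these comparisons.

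Markers of other cells moved with LPS as well. The summed level of the eosinophil markers *Ccr3* and *Siglecf* was 15.3 to 18.5 CPM at 0 hr, 8.02 to 10.0 CPM at 4 hr and 3.62 to 4.58 CPM at 8 hr. That of 3 dendritic cell markers was 0.732 to 1.80 CPM at 0 hr, 4.47 to 5.68 CPM at 4 hr and 4.63 to 5.74 CPM at 8 hr. That of the neutrophil markers was 20.3 to 54.3 CPM at 0 hr and 45.4 to 108 CPM at 4 hr. The part of these cells in the changes of the 8 genes was not tested.

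**Figure D1:**
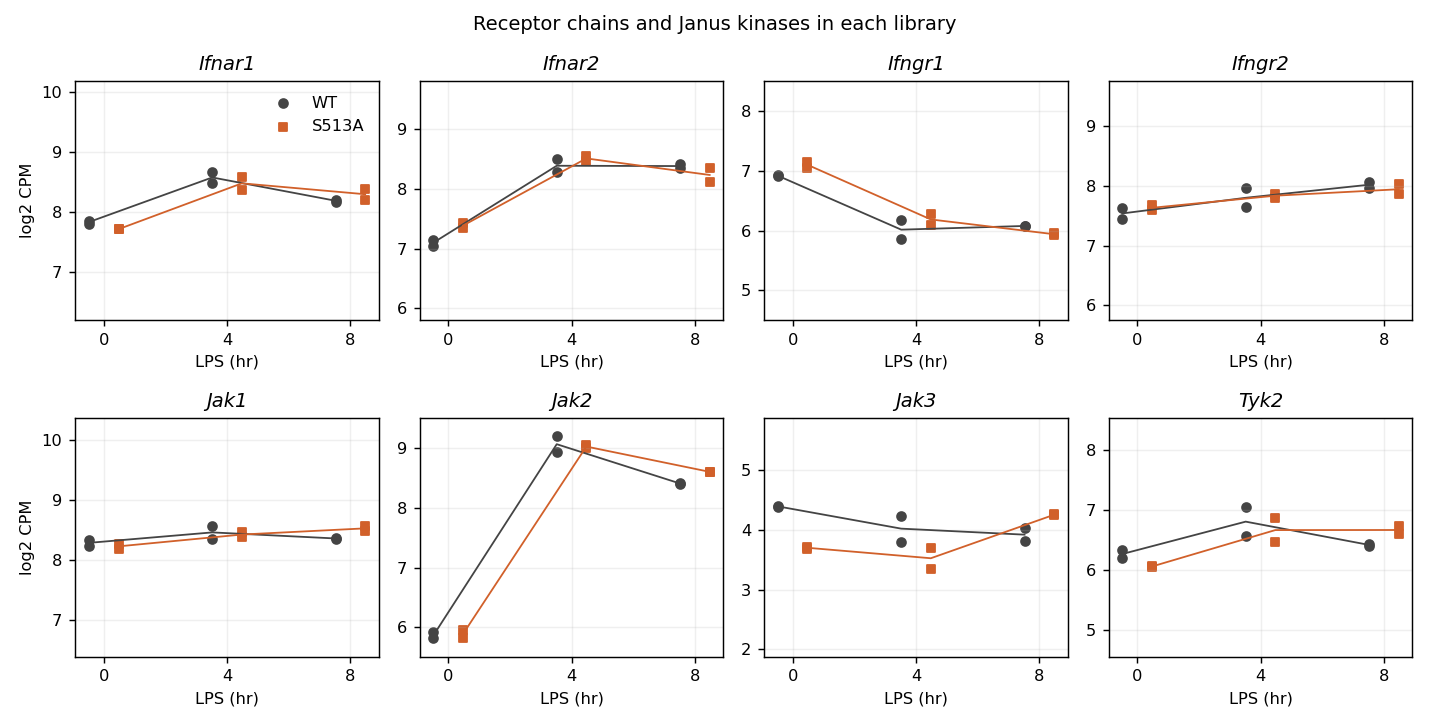
Log2 CPM (vertical axis, each panel spans 4 units) of the 8 genes by time of LPS in hours (horizontal axis), with a point for each library, circles for WT, squares for S513A, and lines through the means of 2 libraries. *Jak2* rises from between 5.81 and 5.96 at 0 hr to between 8.93 and 9.20 at 4 hr, *Ifngr1* falls, and the genotypes of *Jak3* stand apart at 0 hr.

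*Jak2*, the kinase of the IFNGR2 chain and of many other cytokine receptors, changed the most. Its level at 0 hr was 5.92 and 5.81 log2 CPM in the WT libraries and 5.82 and 5.96 in the S513A libraries. At 4 hr it was 8.93 and 9.20 in WT and 9.06 and 8.99 in S513A, and at 8 hr 8.41 and 8.40 in WT and 8.60 and 8.61 in S513A. All 8 libraries with LPS lay above all 4 without, and the 8 hr libraries all lay below the 4 hr libraries. The log2 fold change was 3.17 ± 0.08 (SE, n = 4 libraries per time) at 4 hr, which is 8.99-fold (95% CI 7.97 to 10.1), with an adjusted p of 2.1e-10 by limma. At 8 hr it was 2.63 ± 0.08, or 6.18-fold (95% CI 5.48 to 6.97). The 8 hr libraries were lower than the 4 hr libraries by a log2 fold change of -0.54 ± 0.08 (adjusted p = 0.00068, limma). The reads behind these values numbered 644 to 866 per library at 0 hr and 4384 to 6396 at 4 hr.

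*Ifnar2*, which encodes the high-affinity chain for type I interferon, rose next. Its levels at 0 hr were 7.05 and 7.15 log2 CPM in WT and 7.42 and 7.35 in S513A. At 4 hr they were 8.49 and 8.28 in WT and 8.46 and 8.56 in S513A, and at 8 hr 8.34 and 8.42 in WT and 8.11 and 8.35 in S513A. All libraries with LPS lay above all those without. *Ifnar2* rose by a log2 fold change of 1.21 ± 0.08 at 4 hr (2.31-fold, adjusted p = 4.5e-07, limma) and 1.06 ± 0.08 at 8 hr (2.09-fold, adjusted p = 1.6e-06, limma). *Ifnar2* makes transmembrane and soluble forms of the chain, and values per gene do not separate them. Its exons share 315 bases on the same strand with the overlapping gene model *Gm21970*, and reads there cannot be assigned to 1 of them.

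*Ifnar1*, the partner chain, was 7.86 and 7.81 log2 CPM in WT and 7.71 in each S513A library at 0 hr. After 4 hr of LPS it was 8.48 and 8.67 in WT and 8.59 and 8.37 in S513A, and at 8 hr 8.17 and 8.20 in WT and 8.39 and 8.21 in S513A. The libraries with LPS lay above those without in both genotypes. The rise was 0.76 ± 0.08 on the log2 scale at 4 hr (1.69-fold, adjusted p = 1.5e-05, limma) and 0.47 ± 0.08 at 8 hr (1.39-fold, adjusted p = 0.00071, limma), and the 8 hr value was 0.18 (adjusted p = 0.17, limma) under quantile normalization. From 4 to 8 hr it fell by a log2 fold change of -0.29 ± 0.08 (adjusted p = 0.025, limma), a call that 7 of 25 other settings did not keep.

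*Ifngr1* encodes the chain that binds interferon gamma and was the single gene of the 8 that fell. Its level at 0 hr was 6.91 and 6.93 log2 CPM in WT and 7.15 and 7.06 in S513A. At 4 hr it was 6.18 and 5.86 in WT and 6.09 and 6.28 in S513A, and at 8 hr 6.07 and 6.09 in WT and 5.92 and 5.96 in S513A. All libraries with LPS lay below all those without. The log2 fold change was -0.91 ± 0.08 at 4 hr, which is a level of 0.533 times that at 0 hr (95% CI 0.468 to 0.607, adjusted p = 5.2e-06, limma). At 8 hr it was -1.0 ± 0.08, or 0.50 times (95% CI 0.439 to 0.569, adjusted p = 3.1e-06, limma). Reads fell from between 1585 and 1724 per library to between 575 and 821.

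*Ifngr2*, the signalling chain of the same receptor, moved the other way and by little. Its levels were 7.64 and 7.44 log2 CPM in WT and 7.59 and 7.68 in S513A at 0 hr, and 7.96 and 7.64 in WT and 7.80 and 7.87 in S513A at 4 hr. At 8 hr they were 7.97 and 8.07 in WT and 7.86 and 8.03 in S513A. The 4 hr libraries overlapped with those of 0 hr and the 8 hr libraries did not. Its change was 0.23 ± 0.09 on the log2 scale at 4 hr (adjusted p = 0.0497, limma) and 0.40 ± 0.09 at 8 hr (adjusted p = 0.0045, limma). The 4 hr call held in 7 of 25 other settings, and under quantile normalization the 4 hr value turned to -0.12. The 8 hr call was lost under quantile normalization (0.13, adjusted p = 0.25, limma) and in the S513A libraries alone (0.31, adjusted p = 0.078, limma).

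*Tyk2*, the kinase of the IFNAR1 chain, was 6.33 and 6.21 log2 CPM in WT and 6.05 and 6.07 in S513A at 0 hr. After 4 hr of LPS it was 6.57 and 7.05 in WT and 6.86 and 6.47 in S513A, and at 8 hr 6.43 and 6.40 in WT and 6.73 and 6.61 in S513A. The libraries with LPS lay above those without, and the 4 hr libraries were the most spread. *Tyk2* rose by 0.58 ± 0.12 on the log2 scale at 4 hr (1.49-fold, adjusted p = 0.0016, limma) and 0.38 ± 0.12 at 8 hr (1.30-fold, adjusted p = 0.020, limma). The 8 hr call was lost without any 1 of 6 libraries, with quantile normalization and in the WT libraries alone, where the value was 0.15. The exons of *Tyk2* share 554 bases with the antisense gene *1700084C06Rik*, and the reads were mapped without regard to strand.

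*Jak1*, the kinase shared by both interferon receptors, was 8.33 and 8.24 log2 CPM in WT and 8.19 and 8.27 in S513A at 0 hr. After 4 hr of LPS it was 8.36 and 8.57 in WT and 8.47 and 8.38 in S513A, and at 8 hr 8.35 and 8.37 in WT and 8.57 and 8.49 in S513A. The log2 fold change was 0.19 ± 0.07 at both times, with adjusted p values of 0.055 and 0.063 by limma, and the 95% CI at 4 hr ran from 0.02 to 0.35. Under quantile normalization these values were -0.20 and -0.09.

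**Figure D2:**
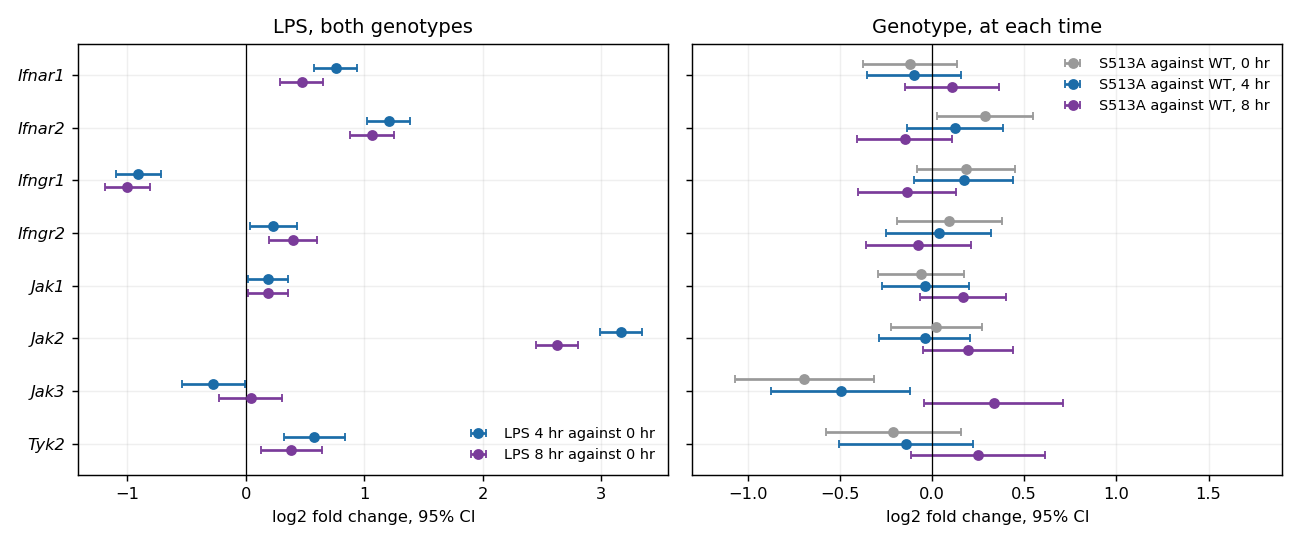
Log2 fold changes (horizontal axes) of the 8 genes (vertical axis) with their 95% CI, on the left for LPS against 0 hr over both genotypes and on the right for S513A against WT at each time. On the left *Jak2* stands at 3.17 and 2.63 and *Ifngr1* at -0.91 and -1.0, and on the right the values of *Jak3* change side between 4 and 8 hr.

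From 4 to 8 hr, *Jak2* and *Ifnar1* were called lower and 0 of the 8 genes were called higher, where 12.8% of all genes were lower, 12.8% were higher and 25.6% were called. The 8 hr libraries did not overlap with those of 4 hr in *Jak2* alone, and in 23.6% of all genes. The number of the 8 genes called from 4 to 8 hr was 1 to 4 when each library was left out in turn. It was 4 without WT replicate 1 of 4 hr, and 1 without either WT library of 8 hr or without S513A replicate 2 of 8 hr. The share of all genes called without each library is not reported here.

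Levels of different genes can be set side by side only per length, that is, RPKM, the CPM divided by the exonic length in kilobases. At 0 hr the 4 receptor chains and *Jak1* lay close together, with means over 4 libraries of 51.1 ± 3.5 RPKM (SD) for *Ifngr2*, 45.7 ± 5.4 RPKM for *Ifnar2*, 45.4 ± 3.6 RPKM for *Ifngr1*, 42.4 ± 1.8 RPKM for *Jak1* and 36.8 ± 1.8 RPKM for *Ifnar1*. The libraries of each of the first 3 of these overlapped with those of the next gene, *Jak1* did not overlap with *Ifnar1*, and *Jak2* and *Tyk2* were lower, at 11.7 ± 0.57 and 10.5 ± 0.96 RPKM, with overlapping libraries. *Jak3* was the lowest, at 3.17 ± 0.87 RPKM.

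At 4 hr *Jak2* and *Ifnar2* led with 105.2 ± 8.6 and 105.1 ± 8.5 RPKM, whose libraries overlapped. *Ifnar1* (62.3 ± 5.7 RPKM), *Ifngr2* (60.1 ± 5.6 RPKM) and *Jak1* (48.3 ± 3.3 RPKM) followed, with no overlap between *Ifnar2* and *Ifnar1*. *Ifngr1*, at 24.3 ± 2.9 RPKM, had moved below *Jak1* and above *Tyk2* at 15.7 ± 2.9 RPKM, with *Jak3* last at 2.61 ± 0.68 RPKM. At 8 hr *Ifnar2* was first with 95.3 ± 8.5 RPKM and *Jak2* next with 72.3 ± 5.7 RPKM, and these did not overlap. *Jak2* therefore went from 0.274 times the level per length of *Jak1* at 0 hr to 2.18 times at 4 hr and 1.48 times at 8 hr (medians of 4 libraries, ranges 0.267 to 0.289, 2.14 to 2.23 and 1.46 to 1.56). Of the RPKM summed over the 4 kinases, *Jak2* made up 16.5 to 18.4% at 0 hr, 60.7 to 62.5% at 4 hr and 51.8 to 53.5% at 8 hr. *Ifngr2* went from 1.03 to 1.25 times *Ifngr1* at 0 hr to 2.27 to 2.61 times at 4 hr and 2.82 to 3.17 times at 8 hr. Of the RPKM summed over the 4 receptor chains, *Ifngr1* made up 24.3 to 26.6% at 0 hr and 8.67 to 10.6% at 4 hr.

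**Figure D3:**
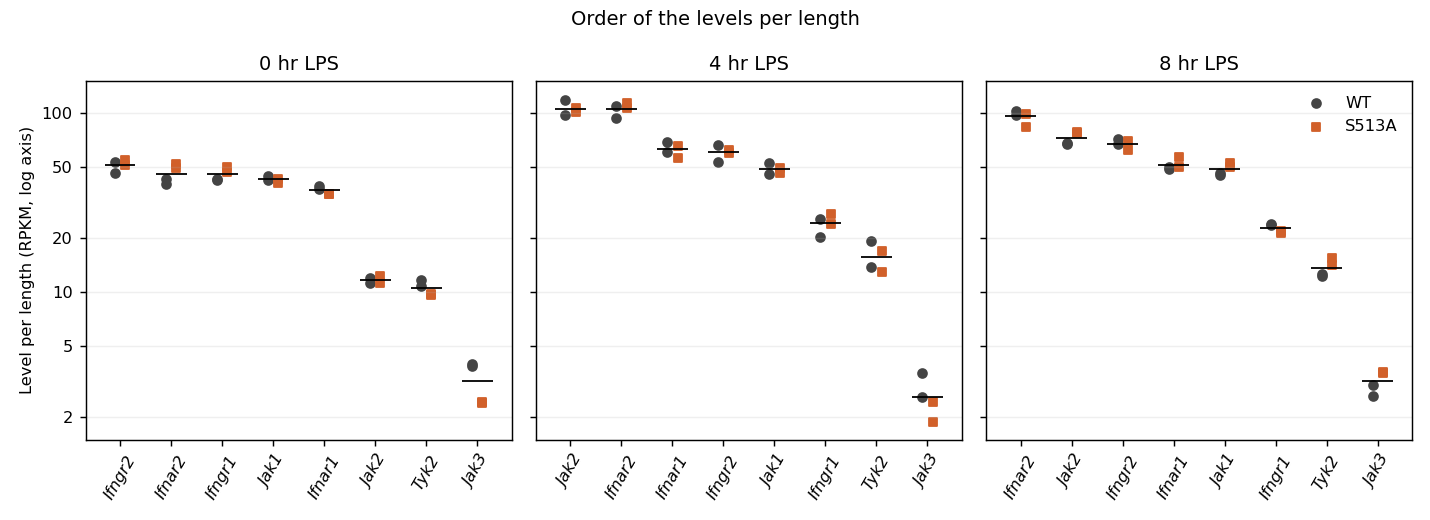
Level per length (RPKM, log axis) of the 8 genes at 0, 4 and 8 hr of LPS, ordered from the highest to the lowest mean in each panel, with a point for each library and a line at the mean of 4. *Jak2* is the sixth at 0 hr (11.7 RPKM) and the first at 4 hr (105.2 RPKM), and *Jak3* is the last at each time.

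Other genes of the pathway were counted from lists, where a gene that rose or fell is one that was called. Beside each list below, 29.1% of all tested genes rose and 26.7% fell at 4 hr, and 24.5% rose and 21.6% fell at 8 hr. Of 20 other interferon genes, *Ifng*, which encodes interferon gamma, was the one with a row. It had 0 reads in each library of 0 hr, 8 to 17 reads at 4 hr and 18 to 21 reads at 8 hr. Taking 3 reads per library as the floor at 0 hr, its mean level was at least 5.05-fold higher at 4 hr and at least 7.87-fold higher at 8 hr. The NK cell marker *Klrk1* also rose with LPS, from 0.0348 to 0.132 CPM over the libraries of 0 hr to 1.33 to 3.20 CPM at 4 hr, and the part of such cells in the *Ifng* reads was not tested. *Ifng* and *Klrk1* were below 1 CPM in each library of 0 hr. They passed the filter through libraries with LPS alone, so a rise was a condition of their being tested.

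Among 15 genes that lead from TLR4 to the induction of interferon beta, 11 rose and 2 fell at 4 hr, and 10 rose and 1 fell at 8 hr. *Cd14*, which hands LPS to TLR4, rose by a log2 fold change of 3.75 at 4 hr and 2.92 at 8 hr. *Irf7*, a transcription factor of the interferon genes, rose by 2.95 and 4.17, and *Nfkb1*, the p50 subunit of NF-κB, by 2.77 and 1.59. *Tlr4* itself fell by a log2 fold change of -0.31 at 4 hr (adjusted p = 0.0030, limma), and it was named after its values were seen.

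Of 10 transcription factors that act downstream of the receptors, 6 rose and 2 fell at 4 hr, and 7 rose and 1 fell at 8 hr. *Stat2*, which acts in the response to type I interferon, rose by 2.78 on the log2 scale at 4 hr and by 2.52 at 8 hr. *Irf1*, an interferon-induced transcription factor, rose by 2.71 and 2.89. *Irf8* and *Stat6* were the factors that fell at 4 hr, by -0.47 and -0.40, and they too were named after their values were seen.

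Among 21 negative regulators of the receptors and kinases, 12 rose and 3 fell at 4 hr, and 10 rose and 1 fell at 8 hr. *Socs1*, which blocks JAK catalytic activity, rose by a log2 fold change of 4.69 at 4 hr and 4.59 at 8 hr. *Usp18*, which binds IFNAR2 and dampens its signal, rose by 4.49 and 3.95, and *Cish*, of the same family as *Socs1*, by 3.44 and 2.02 from 3 to 10 reads per library at 0 hr. Of 25 other receptor chains that signal through Janus kinases and passed the filter, 12 rose and 5 fell at 4 hr, and 13 rose and 5 fell at 8 hr. *Il20rb*, a chain of the IL-20 family receptors, rose by 3.28 and 2.94 on the log2 scale. *Il15ra*, the chain that binds IL-15, rose by 3.07 and 2.85, and *Il2ra* by 3.16 and 3.00 from 0 to 6 reads per library at 0 hr.

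All 19 targets of type I interferon that had a row rose at both times, with a median log2 fold change of 5.97 at 4 hr and 4.63 at 8 hr. *Cxcl10*, a chemokine for T cells, went from 0 to 7 reads per library at 0 hr to between 3683 and 5930 at 4 hr. *Ifit1*, an antiviral protein that binds foreign RNA, rose by a log2 fold change of 7.27 at 4 hr and 6.01 at 8 hr, and the antiviral GTPase *Mx1* by 6.99 and 6.11. Of 15 targets of interferon gamma, which include *Irf1* and *Socs1* counted above, 11 rose and 1 fell at 4 hr, and 11 rose and 0 fell at 8 hr. The guanylate-binding proteins *Gbp5* and *Gbp3* rose by 8.04 and 4.80 on the log2 scale at 4 hr. *Nos2*, the inducible nitric oxide synthase, went from 0 to 3 reads per library at 0 hr to between 144 and 240 at 4 hr. Many of these genes also respond to LPS without interferon, and the libraries do not separate the routes.

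**Figure D4:**
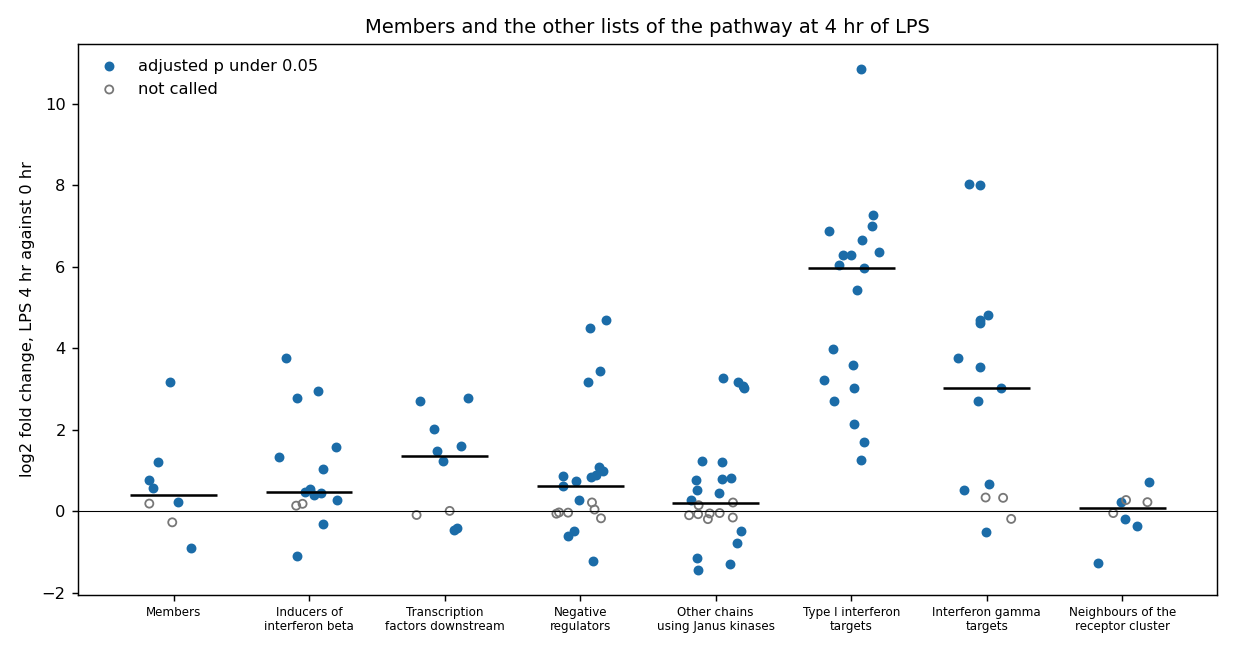
Log2 fold change at 4 hr of LPS against 0 hr (vertical axis) of each tested gene of the members and of 7 other lists (horizontal axis), with filled points for an adjusted p under 0.05, open points for genes not called, and a line at the median of each list. The members' median is 0.40, that of the type I interferon targets is 5.97, and that of the neighbours of the receptor cluster is 0.09.

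The neighbours of the receptor cluster on chromosome 16 gave the local comparison for *Ifnar2*, *Ifnar1* and *Ifngr2*. Of 8 neighbours tested, 2 rose and 3 fell at 4 hr, and 1 rose and 1 fell at 8 hr, while 55.8% and 46.1% of all genes were called at these times. *Itsn1*, an endocytic scaffold, rose by a log2 fold change of 0.71 at 4 hr and 0.67 at 8 hr, and the co-chaperone homologue *Dnajc28* fell by -1.26 and -0.81. *Cryzl1* fell by -0.37 at 4 hr, and at 8 hr its value was -0.14 (adjusted p = 0.33, limma). *Il10rb*, the receptor gene between *Ifnar2* and *Ifnar1*, lay between 7.95 and 8.23 log2 CPM in all 12 libraries, and its log2 fold change was -0.05 ± 0.07 at 4 hr (adjusted p = 0.62, limma) and -0.04 ± 0.07 at 8 hr (adjusted p = 0.68, limma).

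Between S513A and WT, 0 of the 8 genes were called at any time point. Over all genes, the share called was 0.0337% at 0 hr and again at 8 hr, 0.0168% at 4 hr, and 0.0673% when the time points were averaged. Before adjustment, 949 of all genes had a p under 0.05 without LPS, 833 with 4 hr of it and 1487 with 8 hr. Among the 8 genes this was so for *Jak3* and *Ifnar2* at 0 hr and for *Jak3* at 4 hr. In the other lists of the pathway *Gbp5* was the one gene called, higher in S513A at 0 hr by a log2 fold change of 1.17 (adjusted p = 0.017, limma). For the 7 genes other than *Jak3*, the log2 fold change at 0 hr ran from -0.21 in *Tyk2* to 0.29 in *Ifnar2*, and the lowest and highest bounds of their 95% CI were -0.57 and 0.55. At 4 hr it ran from -0.14 in *Tyk2* to 0.17 in *Ifngr1* (bounds -0.51 and 0.44) and at 8 hr from -0.15 in *Ifnar2* to 0.25 in *Tyk2* (bounds -0.41 and 0.61). The smallest adjusted p of these 7 genes at any time was 0.43 by limma. At each time the lowest and the highest bound belong to different genes. The interval of *Ifnar2* at 0 hr, 0.03 to 0.55, lay above no change before adjustment, and the gene was not called.

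The libraries of the genotypes did not overlap in 5 of the 8 genes at 0 hr, 1 at 4 hr and 6 at 8 hr, while this was so in 57.5%, 28.2% and 53.6% of all genes. At 8 hr *Ifnar1*, *Jak1*, *Jak2*, *Jak3* and *Tyk2* were higher in both S513A libraries and *Ifngr1* was lower. *Jak3* was the one gene of the 8 whose genotypes did not overlap at any of the 3 times. The share of all genes for which this was so at all 3 times was not counted.

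*Jak3* had the lowest level and the largest difference between the genotypes, and its direction changed with LPS. At 0 hr it was 4.41 and 4.38 log2 CPM in WT and 3.71 and 3.69 in S513A, from 304, 270, 149 and 153 reads. At 4 hr it was 3.80 and 4.24 in WT and 3.70 and 3.35 in S513A, and at 8 hr 4.03 and 3.81 in WT and 4.24 and 4.26 in S513A. The WT libraries lay above the S513A libraries at 0 and 4 hr and below them at 8 hr. The log2 fold change of S513A against WT was -0.69 ± 0.17 at 0 hr (95% CI -1.07 to -0.31, adjusted p = 0.59, limma), -0.50 ± 0.17 at 4 hr (adjusted p = 0.62, limma) and 0.33 ± 0.17 at 8 hr (95% CI -0.04 to 0.71, adjusted p = 0.41, limma). With a fit of only the 4 libraries of 0 hr, the adjusted p at 0 hr was 0.040 by limma. In the other 21 of 22 alternatives, 0 of the 8 genes were called at 0 hr. The share of all genes called in the fit of 4 libraries is not reported here.

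Pooled over the genotypes, *Jak3* was at a log2 fold change of -0.27 ± 0.12 at 4 hr (adjusted p = 0.076, limma) and 0.04 ± 0.12 at 8 hr (adjusted p = 0.81, limma). Within WT it stood at -0.47 at 8 hr (adjusted p = 0.054, limma), and within S513A it rose by 0.55 (adjusted p = 0.025, limma). The difference between these changes was 1.03 (95% CI 0.49 to 1.56), with an adjusted p of 0.19 by limma, so it was not called. For the interactions of genotype and LPS, 0% of all genes and 0 of the 8 were called at 4 hr and at 8 hr, while 144 and 2405 of all genes had an unadjusted p under 0.05. The other 7 genes ran from -0.43 in *Ifnar2* to 0.46 in *Tyk2* at 8 hr. The 4 hr changes of the genotypes can be read side by side, with *Jak2* at 3.20 in WT and 3.14 in S513A, *Ifnar2* at 1.29 and 1.12, and *Ifngr1* at -0.90 and -0.91. Within WT 5 of the 8 genes were called at 4 hr and 5 at 8 hr (41.3% and 34.3% of all genes), and within S513A 5 and 7 (43.2% and 39.9%). The 7 in S513A at 8 hr included *Jak1*, *Jak3* and *Tyk2*, which were not called in WT, and *Ifngr2* was called in WT at 8 hr (0.48, adjusted p = 0.015, limma) and not in S513A.

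A single axis of variation held 67.6% of the squared differences between replicate libraries, over 8353 genes. The score of a library on it was 0.94 and 0.45 in WT and -0.73 and -0.65 in S513A at 0 hr, -0.51 and 1.69 in WT and 0.15 and -1.33 in S513A at 4 hr, and -0.53 and -0.96 in WT and 1.68 and -0.19 in S513A at 8 hr. The sign of the axis was set so that *Jak3* rose with the score, so the direction of this relation is not a result. With this sign, the loading of *Jak3* was at the 82.4th percentile of the genes, and that of *Tyk2* at the 88.5th. At 0 and 8 hr the genotype with the higher scores was the one with more *Jak3*, and at 4 hr the scores of the genotypes overlapped. The sign was set by *Jak3* and the score carries genotype differences, so this match is partly built in and is not a result. With the score as a term in the model, an analysis added after the data were seen, the difference of *Jak3* between the genotypes was -0.50 at 0 hr and 0.12 at 8 hr, and the difference of its 8 hr changes was 0.62 (adjusted p = 1.00, limma). The score was centred on the mean of each time point and not of each group. It therefore also carries differences between the genotypes, and the term can take part of these out of any gene. The part of this axis in the *Jak3* values was not tested.

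**Figure D5:**
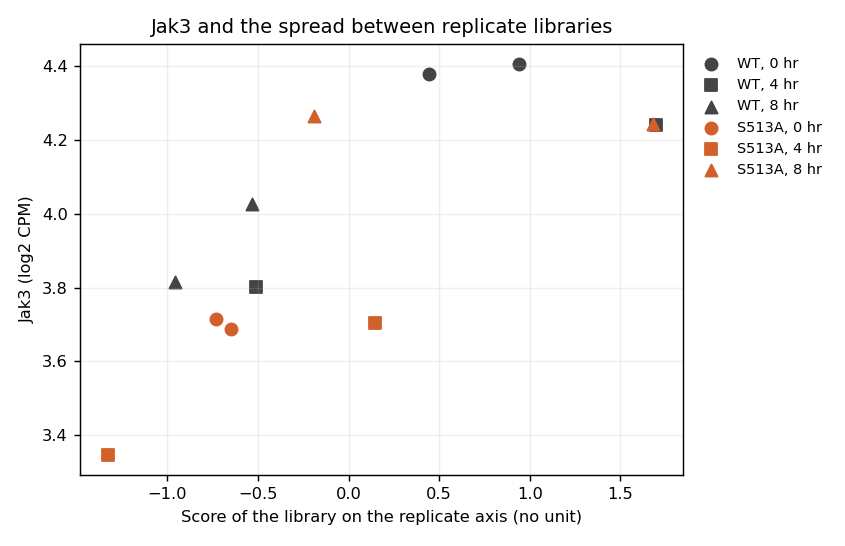
Level of *Jak3* (log2 CPM, vertical axis) against the score of each of the 12 libraries on the axis of replicate differences (horizontal axis, no unit), with grey for WT, orange for S513A, circles for 0 hr, squares for 4 hr and triangles for 8 hr. The WT libraries of 0 hr lie at 4.41 and 4.38 with scores of 0.94 and 0.45, and the S513A libraries of 0 hr at 3.71 and 3.69 with scores of -0.73 and -0.65.

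Markers of other cells were set beside *Jak3*. The summed level of the T cell markers overlapped between WT (1.29 to 2.58 CPM) and S513A (1.71 to 2.56 CPM) at 0 hr, and also at 8 hr (2.62 to 2.90 and 2.87 to 3.06 CPM), while at 4 hr it was lower in WT (2.07 to 2.86 CPM) than in S513A (3.08 to 3.59 CPM). That of the B cell markers was 12.3 to 16.0 CPM in WT and 10.1 to 11.5 CPM in S513A at 0 hr, and 17.9 to 25.9 CPM in WT and 14.5 to 16.7 CPM in S513A at 8 hr, where *Jak3* was lower in WT. That of the neutrophil markers was 20.3 to 35.4 CPM in WT and 51.1 to 54.3 CPM in S513A at 0 hr. The 2 markers went opposite ways there, with log2 fold changes of S513A against WT of -0.56 and 0.98, and neither was called. At 4 hr their summed level overlapped (WT 45.4 to 64.9 and S513A 53.3 to 108 CPM), as it did at 8 hr (84.2 to 102.5 and 33.55 to 86.9 CPM). That of the 5 markers of large resident peritoneal macrophages was higher in WT at each time, at 27.0 to 32.4 CPM against 18.6 to 23.3 CPM at 0 hr, 39.9 to 48.5 against 22.5 to 29.1 CPM at 4 hr and 48.1 to 57.7 against 24.8 to 30.0 CPM at 8 hr, and 1 of these markers was called lower in S513A at 8 hr. *Cd3d*, *Cd3e* and *Ncr1*, which define T and NK cells, are not analysed here. The part of any of these cells in the *Jak3* values was not tested. The exons of *Jak3* share 404 bases on the same strand with *Insl3*, and reads there cannot be assigned to 1 of them.

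The patterns of single genes over the 12 libraries were described by Pearson's r of log2 CPM. The gene most like *Jak2* was *Rassf4* (r = 0.999), followed by *Fam102b* and *Tnip1*, and 1200 genes reached an r above 0.9 with *Jak2*. *Ifnar2* was most like *Exoc3l4* and *Cav2* (r = 0.996 for each) and then *Isg15*, an interferon-stimulated gene (r = 0.994). *Ifnar1* was most like *Slc12a4* (r = 0.995), *Ifngr1* like *Oxct1* (r = 0.992), *Tyk2* like *Llgl1* (r = 0.987) and *Jak1* like *Sh3bp2* (r = 0.981). *Jak3* was most like *Zfc3h1* (r = 0.923), and 11 genes reached an r above 0.9 with it. Among the 8 genes, r was 0.963 between *Jak2* and *Ifnar2*, 0.946 between *Jak2* and *Ifnar1*, and -0.950 between *Jak2* and *Ifngr1*. The 12 libraries are not independent points, since they share 3 time points, and these values are a description.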

How the data were processed

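RNA-seq of PECs was analysed in 12 libraries, 2 of each genotype at each of 3 times of LPS, grouped by the labels. The authors mapped reads to mm10 with HISAT2 without regard to strand and counted them with featureCounts 1.6.3. The values the authors deposited are log2 CPM, the log2 of the reads plus 0.5 over an effective library size. The program that made them and the filter on genes are not given in the sources used here. A whole number of reads was recovered for 100% of the values within 0.1 read. Reads on the listed genes were 9525979 to 12439960 per library, and the floor of 3 reads corresponds to a log2 CPM of -2.04 to -1.30. Floors cover counting error only.

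The log2 values were tested with limma 3.58.1 in R 4.3.3, with 6 group means, 6 residual degrees of freedom and a prior that follows the mean level. The filter kept the 11885 genes that reached 1 CPM in 2 or more libraries. Tests were two-sided, with Benjamini-Hochberg adjustment across these genes in each contrast. LPS contrasts average the genotypes. The fit was tested on simulated data with independent noise in each gene and library. That setting lacks the axis shared by replicate differences, so the fit was not tested under it. RPKM was computed from the reads and exonic lengths of GENCODE M21. Alternatives were no filter, a filter at a mean of 5 CPM, 1 CPM added before the log, median-ratio and quantile scaling, voom weights, a prior without a trend, a replicate block, the compared libraries or 1 genotype alone, each library left out, and, added after seeing the data, an axis of replicate differences as a term. Figures were drawn with matplotlib 3.10.9 in Python 3.11.15.

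The genes, lists and tests were chosen with earlier results of these data known. In each list the 3 tested genes named are those with the largest change at 4 hr among the genes called, and the 3 genes most like each member are those with the highest Pearson's r. Some of the genes these rules pick are not reported here. *Il10rb* is named for its place in the receptor cluster and marker genes for their cell type. Any other gene is marked in the text as picked with its values known.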

Additional observations from a re-analysis of the deposited data

Results flagged for a closer look

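Of the 8 genes, *Jak3* was the one whose 8 hr libraries moved apart from those of 0 hr in opposite directions in the genotypes. The share of all genes that meet this rule was not counted. Its log2 CPM was lower in both WT libraries of 8 hr than in both of 0 hr (log2 fold change -0.47) and higher in both S513A libraries (0.55), a difference of 1.03 on the log2 scale. The test of this difference by limma gave an adjusted p of 0.19, and 0 genes were called in this contrast. In it 2405 of the 11885 tested genes had an unadjusted p under 0.05 by limma.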

How the results depend on the processing

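The number of genes called at 4 hr of LPS against 0 hr stayed at 5 to 7 of 8 when each library was left out, and the calls of *Jak2*, *Ifnar2* and *Ifngr1* at both times, of *Ifnar1* and *Tyk2* at 4 hr and of *Jak2* from 4 to 8 hr held in all 25 alternatives. Of 768 comparisons of a single gene's value with an alternative, 36 lost a call, 21 gained one and 25 changed sign. The call of *Ifngr2* at 4 hr was lost in 18 alternatives, that of *Tyk2* at 8 hr in 8 and that of *Ifnar1* from 4 to 8 hr in 7. The number called at 8 hr was 3 with quantile normalization, where *Ifnar1*, *Ifngr2* and *Tyk2* lost their calls. From 4 to 8 hr it was 1 with quantile normalization, 1 with only the libraries compared, 6 with the replicate axis as a term and 1 to 4 when each library was left out. Between the genotypes at 0 hr it was 1 (*Jak3*) with only the libraries compared and 0 in the other 21 of 22 alternatives. The share of all genes called in each alternative is not reported here, so these counts cannot be set beside it.

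The cause of the changes of sign was not tested. With quantile normalization, which moved the LPS contrast of the 1157 genes between 7 and 9 log2 CPM by a median of -0.36 at 4 hr and that of all genes by -0.08, *Ifngr2* was at -0.12 and *Jak1* at -0.20 at 4 hr, *Jak1* at -0.0941 at 8 hr, and in the mean difference between the genotypes *Ifngr2* was at -0.0153 and *Jak1* at -0.0380. Of all genes called at 4 hr, 45.5% were higher with quantile normalization and 52.2% without, and at 8 hr 44.6% and 53.2%. In WT libraries alone, *Jak3* was at -0.47 at 8 hr against 0 hr, and from 4 to 8 hr *Ifngr1* was at 0.0619, *Jak1* at -0.10 and *Jak3* at -0.10. In S513A libraries alone, *Tyk2* was at 0.00131 from 4 to 8 hr. With median-ratio scaling *Jak1* was at -0.00256 from 4 to 8 hr. With the replicate axis as a term, the mean difference between the genotypes was -0.0173 for *Ifngr2* and 0.0301 for *Tyk2*. When each library was left out, *Jak3* at 8 hr ranged from -0.0127 to 0.0926 and *Jak1* from 4 to 8 hr from -0.0518 to 0.0537. The mean difference between the genotypes then ranged from -0.0732 to 0.00101 for *Ifnar1*, -0.0362 to 0.0720 for *Ifngr2*, -0.0102 to 0.0601 for *Jak1* and -0.114 to 0.0462 for *Tyk2*.

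Whether the replicate numbers pair the libraries was not settled. The correlation of replicate differences between groups of either genotype ran from -0.75 to 0.76 over 8353 genes. Within WT it was -0.21 (0 and 4 hr), 0.15 (0 and 8 hr) and -0.36 (4 and 8 hr), and within S513A -0.03, -0.12 and 0.76. A single axis held 67.6% of the squared differences and can give either sign, so these values cannot decide the question. With the numbers as a replicate block, 5 genes were called at 4 hr, 6 at 8 hr, 2 from 4 to 8 hr and 0 in each comparison of the genotypes, and *Ifngr2* lost its 4 hr call (adjusted p = 0.069, limma). The share of all genes called with this block is not reported here.

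With 2 libraries per group, a difference between the genotypes that was not called is not shown to be absent. *Jak3*, at 87 to 304 reads, has the least depth of the 8 genes.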
